A study of Homo sapiens with 10 samples.

Results

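The proteins that build the basement membrane and the surrounding extracellular matrix were followed as a set of 39 genes. These were taken by symbol out of 27945 gene symbols in the RNA-Seq table. The list was chosen with earlier results of these data known. Its counts of changed genes, given beside the shares over all tested genes, are thus a description and not independent evidence. The 39 genes hold the 6 chains of collagen IV, 9 other collagen chains, 8 laminin chains, 6 nidogens, proteoglycans and netrins, 6 fibronectin and matricellular genes and 4 fibrillins and fibulins. Of these, 31 passed the filter on low values and were tested together with 13333 genes in all. The other 8 were near 0 in the 10 libraries and were not tested.

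RNA-Seq was carried out on EA.hy926 cells, a human line made by fusing umbilical vein endothelial cells with A549 lung carcinoma cells, grown without any added stimulus that the labels name. VEGFA-LNC, a lncRNA antisense to VEGFA, and VEGFC-LNC, a lncRNA upstream of VEGFC, were each removed by CRISPR/Cas9 deletion of the lncRNA promoter. There were 3 homozygous deletion clones per lncRNA, here VEGFA-LNC clones 1 to 3 and VEGFC-LNC clones 1 to 3. Each deletion had its own set of 2 control libraries, from cells given guide RNAs but no Cas9 and then taken through clonal selection too. Every deletion library thus stood for 1 clonal line, and whether the 2 control libraries of a set came from separate clones was not given, so that p-values measure the spread between these libraries only. Neither lncRNA was named in the table used here, so the deletions were not checked from it.

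The basement membrane is a thin sheet on which endothelial cells sit. Laminin trimers and collagen IV each form a network in it, nidogens and the heparan sulfate proteoglycan perlecan link the networks, and netrin-4 binds laminin and loosens its network. Fibronectin, tenascin-C, thrombospondin-1 and SPARC are matrix proteins that endothelial cells secrete or meet when vessels grow or remodel, and fibrillins and fibulins form and decorate microfibrils outside the basement membrane.

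Depth lay between 6743973 and 24197619 reads per library. The libraries carried endothelial transcripts at unequal levels: 11 of 12 endothelial markers were tested, and CLDN5 was listed at 0 in all 10. CDH5 was at 56.6 FPKM or more in the 10 libraries, and KDR, EMCN and VWF reached at most 1.39, 6.74 and 8.78 FPKM. FPKM are reads scaled by transcript length and library size. Summed endothelial markers were at 396 to 410 FPKM in the VEGFA-LNC controls, 295 to 1010 in the VEGFA-LNC clones, 577 to 587 in the VEGFC-LNC controls and 521 to 874 in the VEGFC-LNC clones. Of 10 epithelial markers only KRT7, KRT8 and KRT18 were tested, and their list summed to 1077 to 1087, 487 to 1312, 898 to 912 and 439 to 867 FPKM in the same order, with CDH1 at most 0.048. The fibroblast and mural list, with 6 of 10 tested, summed to 150 to 153, 69.0 to 155, 60.3 to 60.9 and 15.4 to 79.4 FPKM, most of it from RGS5 and ACTA2, while COL1A2, COL3A1, DCN and LUM did not exceed 0.116 FPKM. These sums moved with the groups, and their part in the results was not tested. In bulk RNA, fewer cells of a kind and less RNA per cell cannot be told apart.

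Control libraries of a set lay close together, with a median SD of 0.065 (VEGFA-LNC set) and 0.064 (VEGFC-LNC set) on the log2 scale, and the clones did not, with 0.287 and 0.249. VEGFA-LNC clone 1 stood furthest from the other clones of its group. Its deviation from the group mean ran along with that of VEGFC-LNC clone 1 (r = 0.553 across genes, which are not independent replicates). The counts of DEGs, and the genes whose call in a deletion changes without these clones, are given with and without them.

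**Figure D1:**
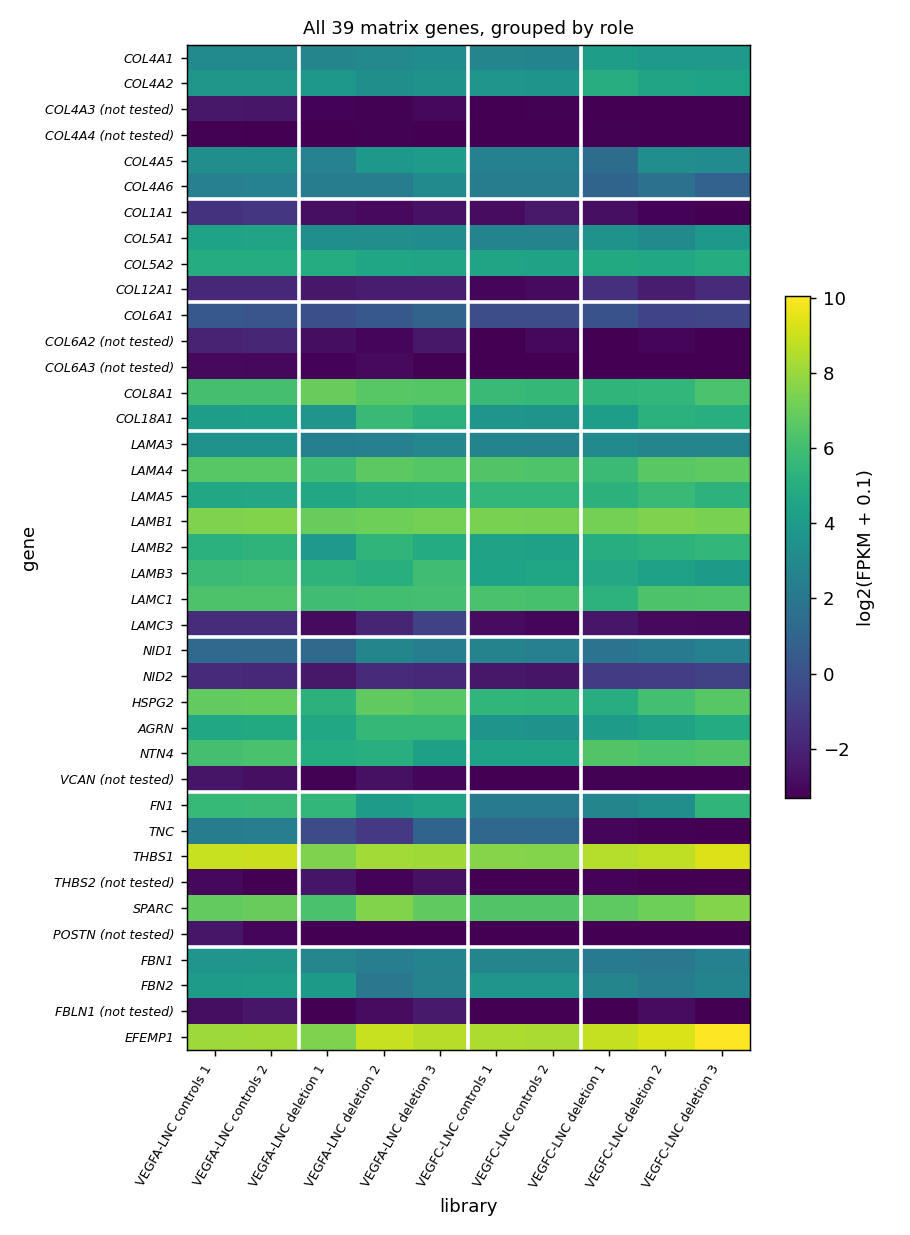
Level of each of the 39 matrix genes in the 10 libraries, as log2(FPKM + 0.1) in colour, with genes in rows grouped by role (white lines) and libraries in columns grouped by deletion or control set. EFEMP1 and THBS1 are the brightest rows, TNC is darkest in the 3 VEGFC-LNC clones, and the 8 genes marked as not tested are dark throughout.

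The matrix genes spanned a wide range of levels. Over the 10 libraries, 4 genes had a mean above 100 FPKM, 15 lay between 10 and 100, 7 between 1 and 10, and 13 at 1 FPKM or less. The 6 with the highest means were EFEMP1, THBS1, LAMB1, SPARC, LAMA4 and HSPG2, and these held 57.3% to 79.8% of the summed FPKM of the 39. That sum was 1817 and 1893 FPKM in the VEGFA-LNC controls and 1130, 1819 and 1630 in VEGFA-LNC clones 1 to 3. It was 1264 and 1225 in the VEGFC-LNC controls and 1617, 2023 and 2831 in VEGFC-LNC clones 1 to 3. The VEGFC-LNC clones lay above both of their controls, and the VEGFA-LNC clones overlapped theirs.

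Upon VEGFA-LNC deletion, 6 of the 31 tested matrix genes were DEGs and all 6 fell: TNC, COL1A1, NTN4, COL5A1, FBN1 and LAMA3. A DEG here passed an FDR of 0.05 in limma (Benjamini-Hochberg over all tested genes) and differed 1.5-fold or more, with FC standing for fold change. Over all tested genes 2.75% were DEGs, and 2.02% were DEGs that fell. Counting only direction, 22 of the 31 had a log2 FC below 0 and 9 above, with a median of -0.31 against -0.059 over all tested genes. The 3 clones lay on 1 side of both controls for 15 of the 31 genes, 14 below and COL8A1 above, where 39% of all tested genes were apart in this way. COL1A1 passed the filter on low values through the VEGFA-LNC controls alone, so its fall against them was built into the choice of tested genes, and the count that can be read is 5 of 30. With the replicate number as a block, 2 of the 31 were DEGs, COL5A1 and FBN1, where 1.13% of all tested genes were. Without the first clone of each deletion the count was 11, with the same 6 genes and AGRN, COL18A1, FBN2, NID1 and THBS1 added. COL1A1 is again among them by the filter, and the share over all tested genes was then 20.1%. The count was 0 in a fit of these 5 libraries alone, where 20 of all tested genes were DEGs. There 9 of the 31 had an unadjusted p under 0.05, against 10 in the fit of all 10 libraries. With 1 VEGFA-LNC clone left out of the latter, the count was 10 without clone 1 (13.0% of all tested genes). It was 3 without clone 2 or clone 3, where 163 and 108 of all tested genes were DEGs. Leaving out any 1 of the 4 controls left 1 library in its group, so counts are not given, and the median log2 FC was -0.32 to -0.29.

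Upon VEGFC-LNC deletion, 3 of the 31 were DEGs: NTN4 and COL4A1 rose and TNC fell. The share over all tested genes was 0.473%. A log2 FC above 0 was seen for 20 of the 31, and the median was 0.18 against -0.090 over all tested genes. The clones were apart from both controls for 19 genes, 15 above and 4 below (COL4A6, TNC, FBN1, FBN2), and 47.8% of all tested genes were apart. With the replicate number as a block, NTN4 and TNC were DEGs and COL4A1 was not, where 0.15% of all tested genes were. Without the first clone of each deletion 18 of the 31 were DEGs, where 20.1% of all tested genes were, as for the other deletion. These were the same 3 with AGRN, COL12A1, COL18A1, COL4A2, COL4A5, COL5A1, EFEMP1, FN1, HSPG2, LAMB2, NID2, SPARC and THBS1, which rose, and COL4A6 and FBN2, which fell. The count was 13 without VEGFA-LNC clone 1, where 8.69% of all tested genes were DEGs. Leaving out VEGFC-LNC control 1 or 2 left 1 library in that group, so counts are not given, and the median log2 FC was 0.30 and 0.16. The study lists TNC, NTN4, FN1, NID2 and COL12A1 among the genes that changed most upon VEGFC-LNC deletion, on these same clones, so their directions here are not independent evidence. By gene ontology, the study tied genes that fell upon VEGFA-LNC deletion and genes that rose upon VEGFC-LNC deletion to extracellular matrix organization. That too rests on these same clones, so the directions of the matrix genes in both deletions are not independent of it.

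The 2 control sets, neither of which had Cas9, also differed from each other. In the VEGFC-LNC controls, 10 of the 31 genes were DEGs relative to the VEGFA-LNC controls, with a background of 12.7% over all tested genes. Of these 9 were lower (COL12A1, COL1A1, COL5A1, FBN1, FN1, LAMA3, LAMB3, NTN4 and THBS1), where 9.76% of all tested genes were lower DEGs, and LAMA5 was higher. COL1A1 is among the 9 by the filter just described, which leaves 9 DEGs of 30 in all. Leaving out any 1 of the 4 controls left 1 library in its set, so counts are not given, and the median log2 difference was -0.75 to -0.73. The count was 16 without VEGFA-LNC clone 1 (23.0% of all tested genes). Without the first clones it was 17, where 28.1% of all tested genes were, with AGRN, COL4A5, HSPG2, LAMB2, LAMC3, NID1 and NID2 added. COL1A1 is again among them by the filter. LAMC3 reached the filter only in both VEGFA-LNC controls and 1 VEGFA-LNC clone, so its lower call leans on the choice of tested genes too. The log2 difference was below 0 for 28 of the 31, with a median of -0.75 against -0.11 over all tested genes. Rescaling the libraries by the median of ratios moved the latter to -0.0043 and the former to -0.64. Both deletions are compared with their own controls in what follows. Where a gene's log2 FC upon a deletion is given, its level in the other control set is given too.

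**Figure D2:**
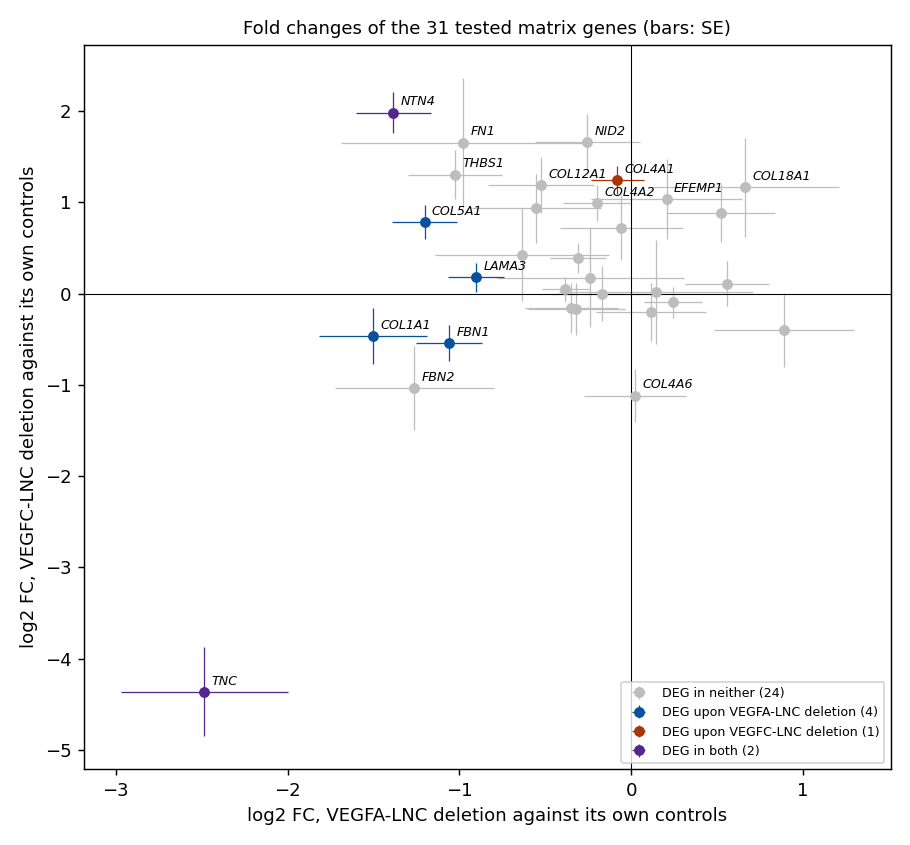
Log2 FC of the 31 tested matrix genes upon VEGFA-LNC deletion (horizontal axis) and VEGFC-LNC deletion (vertical axis), each against its own 2 controls, with bars of 1 SE from the limma fit; colours give the DEG calls and labels name the genes called or with the larger FCs. TNC lies at the lower left, NTN4 at the upper left and COL4A1 above 0 on the vertical axis only.

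Collagen IV, the network-forming collagen of basement membranes, was represented by 4 tested chains. COL4A1 and COL4A2 encode the chains of the common trimer. COL4A1 (chr13:110801305-110959504) was at 6.69 and 6.37 FPKM in the VEGFC-LNC controls and at 17.7, 14.3 and 15.1 in the VEGFC-LNC clones. It was at 8.26 and 8.06 FPKM in the VEGFA-LNC controls and at 6.68, 7.74 and 8.86 in the VEGFA-LNC clones. All 3 VEGFC-LNC clones were thus above the 7 other libraries. COL4A1 rose 2.37-fold upon VEGFC-LNC deletion (log2 FC of 1.25, SE 0.16, FDR of 0.015), and its log2 FC upon VEGFA-LNC deletion was -0.080 (SE 0.16, FDR of 0.82). With the replicate number as a block the rise was 1.21 on the log2 scale, with an FDR of 0.074. Against all 4 controls together the rise was 1.09 on the log2 scale (SE 0.13, FDR of 0.0057).

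COL4A2 (chr13:110959614-111165556), named here as the partner of COL4A1 after its values were seen, was at 12.7 and 12.2 FPKM in the VEGFC-LNC controls and at 32.0, 22.6 and 21.4 in the VEGFC-LNC clones. These clones too were above the 7 other libraries, with 13.5 and 13.3 FPKM in the VEGFA-LNC controls and 13.6, 9.99 and 11.7 in the VEGFA-LNC clones. Its log2 FC of 0.99 (SE 0.20) did not pass with its own controls (FDR of 0.072) and did against all 4 controls (log2 FC of 0.94, FDR of 0.022) and without the first clones (0.81, FDR of 0.0030). The FPKM ratio of COL4A2 to COL4A1 stayed between 1.29 and 2.04 in the 10 libraries.

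The genes COL4A1 and COL4A2 lie head to head on chromosome 13 and are transcribed away from a shared stretch of 109 bases between their start sites, chr13:110959505-110959613 (GRCh37, plus strand, the strand of COL4A2). It is shown because both genes are read from it and both were highest in the VEGFC-LNC clones. Capitals mark matches found by a search of both strands for 4 motifs. A CCAAT box was spelled by its name, and a GC box was read as GGGCGG only. For the TATA box, the letters were taken as either TATAAA or, less strictly, as TATATA. The AP-1 motif was TGANTCA. The stretch held a CCAAT box and a GC box and neither of the others.
COL4A1-COL4A2: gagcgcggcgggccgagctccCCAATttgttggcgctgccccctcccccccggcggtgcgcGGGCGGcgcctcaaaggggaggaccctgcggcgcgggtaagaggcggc
Among 35116 promoters of the RefSeq table (GRCh38.p14), each from 250 bases before to 50 after a start and so longer than this stretch, 34.6% held a CCAAT box and 45.0% a GC box on either strand.

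COL4A5 and COL4A6 form the second head-to-head pair, 346 bases apart on chromosome X. COL4A6 was at 4.78 and 4.83 FPKM in the VEGFC-LNC controls and at 1.88, 3.10 and 1.72 in the VEGFC-LNC clones. It was at 5.63 and 6.05 FPKM in the VEGFA-LNC controls and at 4.95, 5.02 and 8.39 in the VEGFA-LNC clones. The VEGFC-LNC clones were the lowest 3 of the 10 libraries for COL4A6. Its log2 FC was -1.12 (SE 0.29, FDR of 0.12) against its own controls, -1.26 (FDR of 0.030) against all 4 and -1.02 (FDR of 0.043) without the first clones. COL4A5 showed no such order, with 2.54 to 9.27 FPKM in the VEGFC-LNC clones and a log2 FC of 0.016 (SE 0.57), which was 0.61 (FDR of 0.0083) without the first clones. It was at 5.81 to 5.87 FPKM in the VEGFC-LNC controls and at 9.80 to 9.96 in the VEGFA-LNC controls. The ratio of COL4A5 to COL4A6 went from 1.22 in both VEGFC-LNC controls to 1.35, 2.99 and 5.02 in VEGFC-LNC clones 1 to 3. COL4A3 and COL4A4, whose start sites are 5 bases apart on chromosome 2 and whose chains are typical of the kidney glomerulus, were not tested and reached at most 0.079 and 0.006 FPKM.

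Fibrillar and fibril-associated collagens gave 2 of the DEGs that fell upon VEGFA-LNC deletion. COL5A1, a chain of the collagen V that starts fibril assembly (chr9:137533651-137736688), was at 21.7 and 22.0 FPKM in the VEGFA-LNC controls and at 9.98, 9.47 and 8.87 in the VEGFA-LNC clones. It was at 6.52 and 6.19 FPKM in the VEGFC-LNC controls and at 11.6, 8.39 and 13.7 in the VEGFC-LNC clones. The VEGFA-LNC controls were therefore above the 8 other libraries, and the VEGFA-LNC clones lay between the control sets. COL5A1 fell by 1.20 on the log2 scale upon VEGFA-LNC deletion (SE 0.19, FDR of 0.020). Upon VEGFC-LNC deletion its log2 FC was 0.78 (SE 0.19, FDR of 0.11), and 0.74 (FDR of 0.033) without the first clones. Its partner chain COL5A2 stayed at 20.4 to 31.4 FPKM in the 10 libraries, and the ratio of COL5A2 to COL5A1 was 1.40 to 1.45 in the VEGFA-LNC controls and 2.28 to 3.38 in the other 8 libraries.

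COL1A1, the main chain of collagen I, was scarce. It had 29 and 44 reads (0.284 and 0.332 FPKM) in the VEGFA-LNC controls and 4, 3 and 6 reads in the VEGFA-LNC clones. In the VEGFC-LNC set it had 2 and 13 reads in the controls and 6, 1 and 0 in the clones, so that the VEGFA-LNC controls had the highest reads and the 13 of 1 VEGFC-LNC control came next. These 2 VEGFA-LNC controls were the only libraries in which COL1A1 reached the filter, so its values are given as a description. Its log2 FC on the log2(FPKM + 0.1) scale was -1.5 upon VEGFA-LNC deletion, and pooled reads relative to depth were 7.12-fold lower in the clones (95% interval 3.92 to 14.0, counting error only). COL12A1, a fibril-associated collagen, was scarce as well, with 26 and 34 reads in the VEGFA-LNC controls, 10, 16 and 15 in the VEGFA-LNC clones, 1 and 6 in the VEGFC-LNC controls and 45, 15 and 11 in the VEGFC-LNC clones. It reached the filter in both VEGFA-LNC controls and in 2 VEGFC-LNC clones and in no other library. Its log2 FC upon VEGFC-LNC deletion was 1.19 (SE 0.31, FDR of 0.12), and 1.02 (FDR of 0.045) without the first clones.

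The remaining collagens gave no DEG in either deletion. COL18A1, the proteoglycan collagen whose cleaved end is endostatin, was at 13.1 and 11.8 FPKM in the VEGFC-LNC controls and at 17.7, 37.5 and 33.1 in the VEGFC-LNC clones, with a log2 FC of 1.16 (SE 0.54, FDR of 0.29). In the VEGFA-LNC set it was at 17.8 and 18.8 FPKM in the controls and at 12.4, 51.9 and 38.3 in the clones, which overlapped the controls, with a log2 FC of 0.66 (SE 0.54, FDR of 0.55). Clone 1 was the lowest of the 3 clones in both deletions for COL18A1, and without the first clones its log2 FC was 1.28 (FDR of 0.0021) upon VEGFA-LNC deletion and 1.49 (FDR of 0.0014) upon VEGFC-LNC deletion. COL8A1, an endothelial short-chain collagen, was at 68.1 and 69.8 FPKM in the VEGFA-LNC controls and at 121, 95.7 and 90.5 in the VEGFA-LNC clones, and is named after its values were seen. These clones were above the 7 other libraries, with a log2 FC of 0.56 (SE 0.24, FDR of 0.25). COL8A1 was at 51.9 and 47.6 FPKM in the VEGFC-LNC controls and at 43.4, 45.6 and 77.5 in the VEGFC-LNC clones. COL6A1 was at 0.555 to 1.83 FPKM in the 10 libraries. COL6A2 and COL6A3 did not exceed 0.169 and 0.026 FPKM and were not tested.

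All 8 laminin chains were tested, and 1, LAMA3, was a DEG in a deletion. LAMA3, the alpha chain of an epithelial laminin, was at 11.1 and 11.5 FPKM in the VEGFA-LNC controls and at 5.29, 5.66 and 7.2 in the VEGFA-LNC clones. It was at 6.35 and 6.17 FPKM in the VEGFC-LNC controls and at 7.96, 6.75 and 6.63 in the VEGFC-LNC clones. As for COL5A1, the VEGFA-LNC controls were the highest 2 of the 10 libraries. LAMA3 fell by 0.90 on the log2 scale upon VEGFA-LNC deletion (SE 0.16, FDR of 0.028, or 0.062 with the replicate block), and its log2 FC upon VEGFC-LNC deletion was 0.18 (SE 0.16, FDR of 0.56). LAMB3, the beta chain of the same laminin, was at 56.0 and 58.4 FPKM in the VEGFA-LNC controls and 21.9 and 22.8 in the VEGFC-LNC controls (log2 difference of -1.35, FDR of 0.023). Its clones overlapped their controls in both sets, with 41.8, 34.8 and 62.3 FPKM upon VEGFA-LNC deletion and 26.5, 19.9 and 15.2 upon VEGFC-LNC deletion.

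The vascular laminin chains were abundant and were not DEGs. LAMA4, the alpha chain made by endothelial cells generally, was at 93.4 and 95.9 FPKM in the VEGFA-LNC controls, at 62.1, 103 and 92.6 in the VEGFA-LNC clones, at 84.2 and 82.3 in the VEGFC-LNC controls and at 54.6, 99.1 and 106 in the VEGFC-LNC clones. Clone 1 was the lowest of its group in both deletions. LAMA5, the alpha chain of mature vessels, was at 24.8 and 26.7 FPKM in the VEGFA-LNC controls and 46.1 and 45.7 in the VEGFC-LNC controls, a log2 difference of 0.83 (SE 0.19, FDR of 0.024). Its clones were at 25.7, 32.3 and 34.0 FPKM upon VEGFA-LNC deletion and at 38.1, 51.6 and 40.3 upon VEGFC-LNC deletion. The ratio of LAMA4 to LAMA5 was 3.59 to 3.76 in the VEGFA-LNC controls and 1.80 to 1.83 in the VEGFC-LNC controls.

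LAMB1, the beta chain with the highest level, was at 177 and 180 FPKM in the VEGFA-LNC controls and at 121, 138 and 154 in the VEGFA-LNC clones, where it was below the 7 other libraries, with a log2 FC of -0.38 (SE 0.14, FDR of 0.17). In the VEGFC-LNC set it was at 162 and 159 FPKM in the controls and at 154, 178 and 166 in the clones. LAMC1, the gamma chain shared by most laminins, ranged from 39.3 to 82.1 FPKM and LAMB2 from 14.6 to 46.7 FPKM. The log2 FC of LAMB2 upon VEGFC-LNC deletion was 0.93 (FDR of 0.24), and 1.08 (FDR of 0.0051) without the first clones. For LAMB2 the VEGFC-LNC clones were at 32.1 to 46.7 FPKM, their controls at 19.8 to 20.9 and the VEGFA-LNC controls at 36.5 to 41.7. LAMC3 had 1 to 52 reads per library. Counted over the 31 tested genes, the VEGFA-LNC clones were outside all 7 other libraries for 2, COL8A1 above and LAMB1 below, where 6.05% of all tested genes were. The VEGFC-LNC clones were outside for 6, with COL4A1, COL4A2, NID2 and NTN4 above and COL4A6 and TNC below, where 8.63% of all tested genes were.

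NTN4 encodes netrin-4, the basement membrane netrin that binds laminin gamma chains, and was a DEG in both deletions with opposite signs. NTN4 (chr12:96051583-96184984) was at 68.7 and 74.3 FPKM in the VEGFA-LNC controls and at 31.3, 34.0 and 19.1 in the VEGFA-LNC clones. It was at 20.9 and 20.8 FPKM in the VEGFC-LNC controls and at 84.1, 77.7 and 86.9 in the VEGFC-LNC clones. The VEGFC-LNC clones were thus above the 7 other libraries, and the VEGFC-LNC controls were below both VEGFA-LNC controls. NTN4 fell by 1.38 on the log2 scale upon VEGFA-LNC deletion (SE 0.22, FDR of 0.020, or 0.051 with the replicate block) and rose 3.96-fold upon VEGFC-LNC deletion (log2 FC of 1.98, SE 0.22, FDR of 0.0093). The VEGFC-LNC controls differed from the VEGFA-LNC controls by a log2 of -1.77 (FDR of 0.0056). Against all 4 controls the log2 FC was -0.50 (FDR of 0.19) upon VEGFA-LNC deletion and 1.10 (FDR of 0.021) upon VEGFC-LNC deletion.

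The RefSeq promoter of NTN4 whose start lies nearest to the start of the transcript in the table, 51 bases downstream of it, is shown since this gene differed most between the deletions. It holds chr12:96184934-96185183 (GRCh37, minus strand, RefSeq), the 250 bases before the start site. None of the 4 motifs was found in it on either strand, which is why it carries no capitals.
NTN4: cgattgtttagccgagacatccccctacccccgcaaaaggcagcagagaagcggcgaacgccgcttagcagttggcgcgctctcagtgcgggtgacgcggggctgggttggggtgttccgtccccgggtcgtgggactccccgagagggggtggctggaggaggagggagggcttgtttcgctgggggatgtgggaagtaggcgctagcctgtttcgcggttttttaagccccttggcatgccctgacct
A second RefSeq start of NTN4 lies 442 bases downstream of the start in the table. In the 250 bases before this second start, 4 GC boxes were found, of which 2 overlap, all downstream of the start in the table.

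Nidogens and proteoglycans were not DEGs in either deletion. NID2, a nidogen that ties laminin to collagen IV, had 4 and 8 reads in the VEGFC-LNC controls (0.084 and 0.066 FPKM) and 45, 40 and 18 in the VEGFC-LNC clones (0.40, 0.431 and 0.531 FPKM). In the VEGFA-LNC set it was at 0.218 and 0.194 FPKM in the controls and at 0.080, 0.216 and 0.195 in the clones. The VEGFC-LNC clones were above the 7 other libraries for NID2, with a log2 FC of 1.66 (SE 0.31, FDR of 0.058) against their own controls, 1.25 (FDR of 0.032) against all 4 and 1.73 (FDR of 0.0034) without the first clones. NID1 ran from 2.31 to 7.0 FPKM, with clone 1 the lowest clone in both deletions. Its log2 FC upon VEGFA-LNC deletion was 0.89 (FDR of 0.27), and 1.33 (FDR of 0.0036) without the first clones. NID1 was at 2.307 to 2.389 FPKM in the VEGFA-LNC controls, 2.375 to 6.997 in the VEGFA-LNC clones and 5.558 to 6.202 in the VEGFC-LNC controls.

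HSPG2, which encodes perlecan, was at 113 and 119 FPKM in the VEGFA-LNC controls, at 39.1, 111 and 96.3 in the VEGFA-LNC clones, at 43.9 and 43.5 in the VEGFC-LNC controls and at 32.0, 66.0 and 95.9 in the VEGFC-LNC clones. Clone 1 was the lowest library of each set for HSPG2, and its log2 FCs were -0.63 (SE 0.51) and 0.43 (SE 0.51). Without the first clones the latter was 0.86 (FDR of 0.011). AGRN, which encodes the proteoglycan agrin, was at 24.5 to 47.4 FPKM in the VEGFA-LNC clones and 16.6 to 29.4 in the VEGFC-LNC clones, with log2 FCs of 0.52 (FDR of 0.40) and 0.88 (FDR of 0.20). Without the first clones these were 0.84 (FDR of 0.0083) and 1.08 (FDR of 0.0034). VCAN, which encodes the proteoglycan versican, did not exceed 0.067 FPKM and was not tested.

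TNC encodes tenascin-C, a matricellular glycoprotein of remodelling tissue, and fell in both deletions. TNC (chr9:117781854-117880536) was at 2.14 and 2.08 FPKM in the VEGFC-LNC controls and at 0.016, 0.006 and 0 in the VEGFC-LNC clones. These clones held 3, 1 and 0 reads, against 174 and 431 reads in the controls, and the 0 of clone 3 allows up to 0.052 FPKM. TNC was at 5.04 and 5.11 FPKM in the VEGFA-LNC controls and at 0.769, 0.367 and 1.85 in the VEGFA-LNC clones. No clone of either deletion reached a control of its own set, and the VEGFC-LNC clones were the lowest 3 libraries. Pooled reads of TNC relative to depth were 214-fold lower in the VEGFC-LNC clones (95% interval 83.1 to 788, counting error only) and 5.11-fold lower in the VEGFA-LNC clones (95% interval 4.60 to 5.69). On the log2(FPKM + 0.1) scale TNC fell by 4.37 (SE 0.49, FDR of 0.0093) upon VEGFC-LNC deletion and by 2.48 (SE 0.49, FDR of 0.036) upon VEGFA-LNC deletion, where the FDR was 0.051 with the replicate block. With voom on the reads, the log2 FC upon VEGFC-LNC deletion was -7.49 with an SE of 1.39 and an FDR of 0.072. The difference between the deletions in TNC did not pass (log2 of -1.88, SE 0.69, FDR of 0.20).

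The 250 bases before the RefSeq start site of TNC, chr9:117880437-117880686 (GRCh37, minus strand), are shown because TNC was a DEG with a lower level in both deletions. The RefSeq start is 100 bases downstream of the start of the transcript in the table, which lies inside the stretch shown. Capitals mark a GC box and a TATA box, whose letters read the same on both strands. The TATA box lies downstream of the start in the table, and no CCAAT box or AP-1 motif was found.
TNC: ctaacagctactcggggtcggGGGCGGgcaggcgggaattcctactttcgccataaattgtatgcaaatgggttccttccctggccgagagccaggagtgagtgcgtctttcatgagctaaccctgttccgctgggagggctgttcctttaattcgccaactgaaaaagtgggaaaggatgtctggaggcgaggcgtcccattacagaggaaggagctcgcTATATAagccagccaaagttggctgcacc
A TATA box so defined was held by 13.7% of the 35116 RefSeq promoters and an AP-1 motif by 7.71%.

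**Figure D3:**
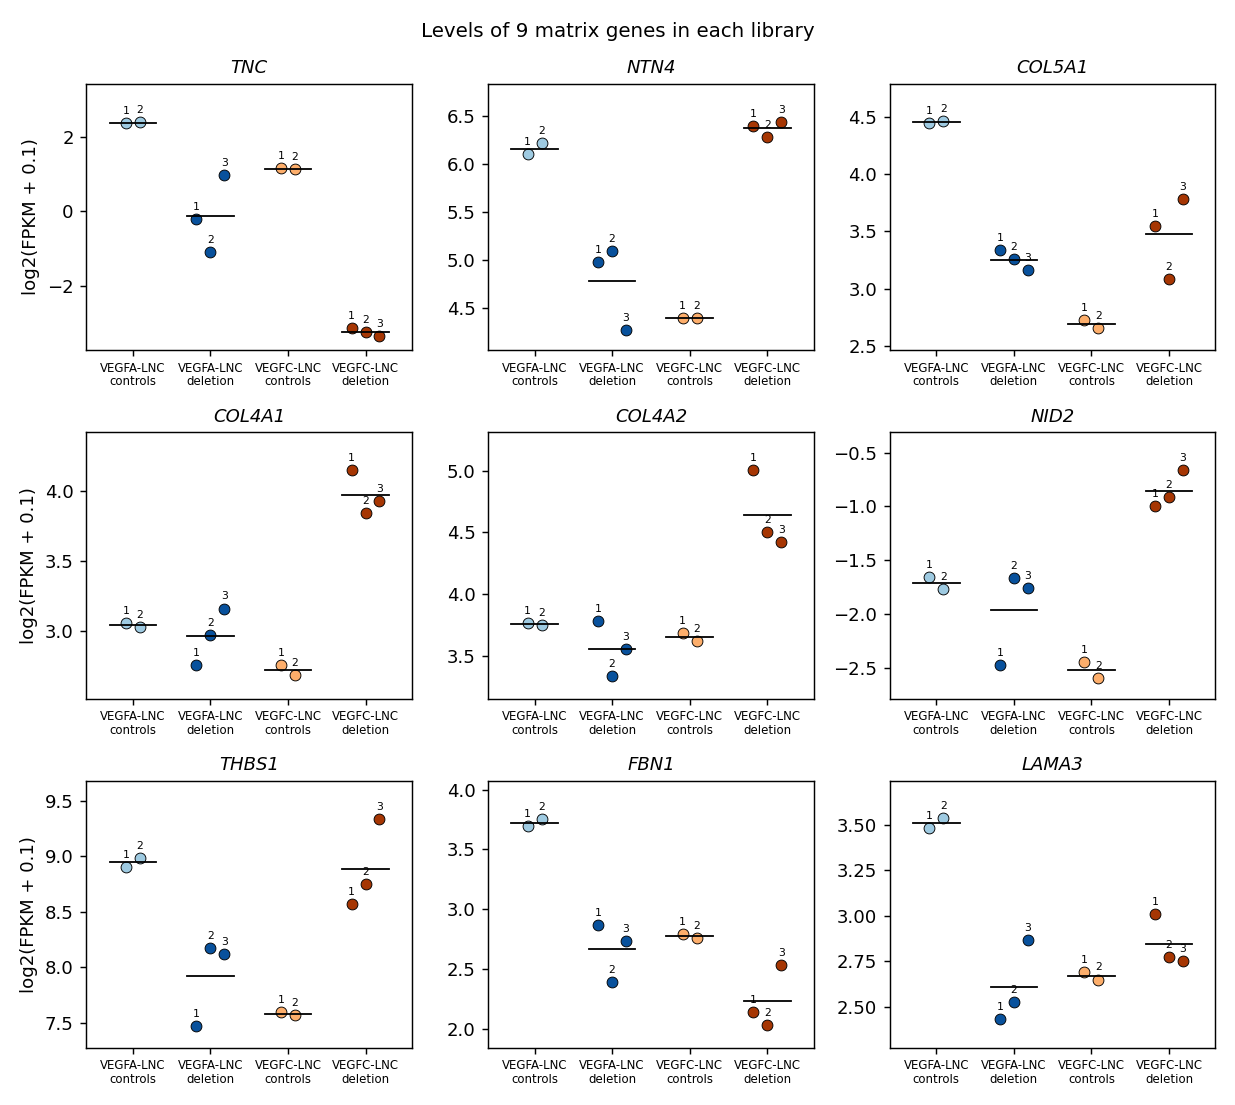
Level of 9 matrix genes in each library as log2(FPKM + 0.1), with 1 point per library numbered by replicate, a line at the mean of each group, and a vertical axis of its own for each gene that does not start at 0. TNC is lowest in the VEGFC-LNC clones, NTN4, COL4A1, COL4A2 and NID2 are highest there, and COL5A1, FBN1 and LAMA3 are highest in the VEGFA-LNC controls.

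THBS1, which encodes the angiogenesis inhibitor thrombospondin-1, was at 479 and 505 FPKM in the VEGFA-LNC controls and at 177, 289 and 277 in the VEGFA-LNC clones. It was at 194 and 189 FPKM in the VEGFC-LNC controls and at 380, 430 and 646 in the VEGFC-LNC clones. The clones did not overlap their own controls in either deletion, below them upon VEGFA-LNC deletion and above them upon VEGFC-LNC deletion. The log2 FCs were -1.02 (SE 0.27, FDR of 0.084) and 1.30 (SE 0.27, FDR of 0.080), neither of them a DEG. Without the first clones they were -0.80 (FDR of 0.019) and 1.46 (FDR of 0.0024), and THBS1 was a DEG in both.

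FN1, which encodes fibronectin, differed most between the control sets. It was at 48.9 and 50.8 FPKM in the VEGFA-LNC controls and at 4.41 and 4.36 in the VEGFC-LNC controls, a log2 difference of -3.48 (SE 0.78, FDR of 0.025). FN1 was at 45.9, 16.8 and 20.8 FPKM in the VEGFA-LNC clones and at 6.58, 9.52 and 43.5 in the VEGFC-LNC clones. The 3 VEGFC-LNC clones thus spread almost as widely as the 2 control sets lay apart, and the log2 FC upon VEGFC-LNC deletion was 1.65 (SE 0.71, FDR of 0.26) against its own controls, 2.19 (FDR of 0.028) without the first clones and -0.085 against all 4. SPARC, a collagen-binding glycoprotein, was at 115 and 121 FPKM in the VEGFA-LNC controls, at 72.7, 183 and 109 in the VEGFA-LNC clones, at 84.1 and 84.6 in the VEGFC-LNC controls and at 105, 136 and 188 in the VEGFC-LNC clones. Its log2 FC upon VEGFC-LNC deletion was 0.72 (SE 0.36, FDR of 0.31), and 0.92 (FDR of 0.029) without the first clones. THBS2 and POSTN were not tested. POSTN, which encodes periostin, had 4 and 1 reads in the VEGFA-LNC controls and 0 in the 8 other libraries, and THBS2 had at most 6 reads.

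Fibrillins form the microfibrils of elastic tissue. FBN1 was at 12.8 and 13.4 FPKM in the VEGFA-LNC controls and at 7.2, 5.16 and 6.54 in the VEGFA-LNC clones, and fell by 1.06 on the log2 scale (SE 0.19, FDR of 0.029). It was at 6.84 and 6.65 FPKM in the VEGFC-LNC controls and at 4.30, 3.98 and 5.68 in the VEGFC-LNC clones, with a log2 FC of -0.54 (SE 0.19, FDR of 0.20). Every clone was below both controls of its own set for FBN1. FBN2, a fibrillin of developing tissue, was at 16.7 and 18.1 FPKM in the VEGFA-LNC controls and at 15.5, 3.87 and 6.17 in the VEGFA-LNC clones, and at 12.4 and 12.4 in the VEGFC-LNC controls and 6.63, 5.03 and 6.48 in the VEGFC-LNC clones. FBN2 was below the controls in all 6 clones as well, with log2 FCs of -1.26 (SE 0.46, FDR of 0.18) and -1.04 (SE 0.46, FDR of 0.27). Without the first clones these were -1.81 (FDR of 0.0020) and -1.11 (FDR of 0.0099).

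EFEMP1, a fibulin, had the highest mean of the 39 genes. It was at 274 and 281 FPKM in the VEGFA-LNC controls, at 176, 484 and 386 in the VEGFA-LNC clones, at 339 and 321 in the VEGFC-LNC controls and at 470, 627 and 1057 in the VEGFC-LNC clones. The VEGFC-LNC clones were above all 4 controls for EFEMP1, with a log2 FC of 1.04 (SE 0.44, FDR of 0.25), and 1.30 (FDR of 0.0077) without the first clones. FBLN1 did not exceed 0.098 FPKM and was not tested.

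Both VEGFA-LNC controls were above the 8 other libraries for 8 of the 31 genes (COL1A1, COL5A1, LAMA3, HSPG2, FN1, TNC, FBN1 and FBN2), and the share over all tested genes was 16.3%. Leaving aside COL1A1, which was tested only through these controls, it was 7 of 30. When each deletion was set against all 4 controls, no matrix gene was a DEG upon VEGFA-LNC deletion by limma, where 1.21% of all tested genes were, and 9 of the 31 had an unadjusted p under 0.05. The FDR of TNC was then 0.063 at a log2 FC of -1.87. Upon VEGFC-LNC deletion, 8 of the 31 were DEGs against all 4 controls, where 4.1% of all tested genes were: NTN4, COL4A1, COL4A2 and NID2 rose, and TNC, COL4A6 and FBN1 fell, with COL1A1 as the eighth, tested only through its level in the VEGFA-LNC controls.

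Whether the deletions differed in their effects was tested in the same fit, as the FC of VEGFC-LNC deletion relative to that of VEGFA-LNC deletion. The difference passed for 4 of the 31 genes, with a background of 1.46%, and all 4 were positive. It was 3.37 on the log2 scale for NTN4 (SE 0.31, FDR of 0.0041) and 2.33 for THBS1 (SE 0.39, FDR of 0.028). It was 1.99 for COL5A1 (SE 0.27, FDR of 0.015) and 1.33 for COL4A1 (SE 0.22, FDR of 0.028). The control sets enter this difference as well, and they differed by -1.77 for NTN4, -1.36 for THBS1, -1.77 for COL5A1 and -0.32 for COL4A1. With the replicate number as a block the difference in COL4A1 had an FDR of 0.060 and the others passed. The difference passed for 9 of the 31 genes without VEGFA-LNC clone 1 (5.21% of all tested genes) and for 12 without both first clones (10.2%). Leaving out any 1 of the 4 controls left 1 library in its set, so counts are not given, and the median difference was 0.49 to 0.57. Those added without both first clones were COL4A2, COL5A2, FN1, HSPG2, LAMA3, LAMB2 and NID2, which were positive, and NID1.

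Genes that process or bind the matrix were given by lists, to be read against the shares of DEGs over all tested genes, 2.75% and 0.473% upon the 2 deletions. Of the 23 tested enzymes that modify and fold collagen, 1 was a DEG upon VEGFA-LNC deletion, CRTAP, a subunit of the collagen prolyl 3-hydroxylase complex, which rose by a log2 of 0.63 (SE 0.12, FDR of 0.035). CRTAP was at 14.7 and 15.7 FPKM in the VEGFA-LNC controls and at 24.9, 21.6 and 24.5 in the VEGFA-LNC clones. It was at 18.4 and 18.7 FPKM in the VEGFC-LNC controls and at 23.5, 23.2 and 20.2 in the VEGFC-LNC clones. Of 16 tested matrix receptors other than integrins, 1 was a DEG upon VEGFA-LNC deletion: CD44, the hyaluronan receptor, fell by a log2 of 1.12 (SE 0.16, FDR of 0.014). CD44 was at 330 and 321 FPKM in the VEGFA-LNC controls, at 175, 129 and 150 in the VEGFA-LNC clones, at 97.5 and 99.7 in the VEGFC-LNC controls and at 118, 95 and 113 in the VEGFC-LNC clones. Of 22 other tested matrix genes, LTBP4, which binds latent TGF-beta, rose upon VEGFA-LNC deletion (log2 FC of 0.60, SE 0.12, FDR of 0.038). LTBP4 was at 13.9 and 14.0 FPKM in the VEGFA-LNC controls and at 20.7, 22.7 and 20.3 in the VEGFA-LNC clones. It was at 21.3 and 22.5 FPKM in the VEGFC-LNC controls and at 17.6, 19.3 and 21.0 in the VEGFC-LNC clones. LTBP4 was also a DEG between the control sets (log2 difference of 0.65, FDR of 0.019). Of these 61 genes 3 were DEGs upon VEGFA-LNC deletion by limma and 5 by voom on the reads. None was a DEG upon VEGFC-LNC deletion by limma or by voom on the reads, with 10 and 9 of them at an unadjusted p under 0.05. The median log2 FC of the 3 lists was -0.16, 0.15 and -0.50 upon VEGFA-LNC deletion and 0.25, 0.14 and -0.20 upon VEGFC-LNC deletion.

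Genes near NTN4, TNC and COL4A1 on their chromosomes are described by medians only. For the 25 tested genes on each side of NTN4, in chromosome order, the median log2 FC was 0.0086 upon VEGFA-LNC deletion and -0.11 upon VEGFC-LNC deletion. For the 25 on each side of TNC it was -0.086 and 0.046, with -0.34 between the control sets. For the 25 on each side of COL4A1, COL4A2 among them, it was -0.072 and 0.13.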

How the data were processed

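RNA-Seq of 10 libraries was used (total RNA, rRNA depleted, directional kit, single-end). The authors deposited FPKM per RefSeq transcript on hg19, whose making is not described in the sources used here. The submitters' processing notes name Trim Galore (version 0.4.4), STAR (version 2.5.4b) and featureCounts. Groups and replicate numbers were taken from the labels. FPKM times length fell on whole multiples of 1 read in 100% of the values checked (tolerance 0.1 read), which gave the depth and the reads, and intervals cover counting error only, as reads had no molecular identifiers. For a symbol with several transcripts (21 of the 39) the row with the highest mean was kept. Rows that overlap share reads. The 42 rows naming no gene, at most 0.035% of reads, were left out.

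The count test of the study's methods needs counts and was replaced by limma (version 3.58.1, R 4.3.3), with lmFit and eBayes with trend, on log2(FPKM + 0.1), for genes with FPKM times kilobases of at least 1 in at least 2 libraries. All 10 libraries entered 1 fit of 4 groups (6 residual degrees of freedom, median prior 2.8). A pseudocount of 0.1 understates the change of low genes. DEGs passed an FDR of 0.05 and differed 1.5-fold or more. The alternatives tried were another transcript row, pseudocount, filter, scaling or test, only the groups compared, a replicate block, all 4 controls, each control pair as 1 sample, the first clones left out and each library left out. Same-numbered clones of the 2 deletions deviated together (r of 0.553, 0.409 and 0.219). Same-numbered clones and controls of a set did not (r of -0.043 to 0.047), nor did those across the sets (r of -0.055 to 0.0087). The main fit did not pair libraries by number, for the difference between deletions as well. The number entered only in the alternative with a replicate block, which took in all 10 libraries.

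The matrix genes, lists and tests were chosen with earlier results of these data known. Genes given with every library's value were those called in any comparison, those with a log2 FC of at least 1 either way and clones on 1 side of both controls, and the 6 with the highest means. COL4A2 and COL8A1 are given by library beside that rule, chosen after their values were seen, and the other genes by ranges.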

Additional observations from a re-analysis of the deposited data

Results flagged for a closer look

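The effects of the 2 deletions differed by the test of the difference itself for 4 matrix genes, each given as the log2 FC of VEGFC-LNC deletion minus that of VEGFA-LNC deletion (limma, SE and FDR in the text above). NTN4 differed by 3.37, with clones higher than their controls in 3 of 3 VEGFC-LNC clones and lower in 3 of 3 VEGFA-LNC clones. THBS1 differed by 2.33 and COL5A1 by 1.99, with the same order of clones and controls in both sets. COL4A1 differed by 1.33, with 3 of 3 VEGFC-LNC clones above their controls and the VEGFA-LNC clones overlapping theirs. The control sets enter each difference, and they differed by -1.77 for NTN4, -1.36 for THBS1, -1.77 for COL5A1 and -0.32 for COL4A1. For COL5A1 the clones of the 2 deletions overlapped, with 8.87 to 9.98 FPKM upon VEGFA-LNC deletion and 8.39 to 13.7 upon VEGFC-LNC deletion. For NTN4, THBS1 and COL4A1 they did not. Over the alternatives the FDR of the difference ran from 0.0018 to 0.31 for NTN4, 0.0052 to 0.75 for THBS1, 0.0064 to 0.54 for COL5A1 and 0.0092 to 0.79 for COL4A1.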

How the results depend on the processing

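Counts of DEGs among the matrix genes were 6 upon VEGFA-LNC deletion, 3 upon VEGFC-LNC deletion, 10 between the control sets and 4 for the difference between deletions. They stayed within 1.5 times of this with the longest transcript, a pseudocount of 1, no filter, median-of-ratios scaling and voom. Fitting the compared groups alone gave 0 upon VEGFA-LNC deletion (9 at an unadjusted p under 0.05), 2 upon VEGFC-LNC deletion and 18 between the control sets. Over all 13333 tested genes 20, 26 and 4401 were then DEGs. COL1A1 and LAMC3, which reached the filter only or mainly in the VEGFA-LNC controls, are among the 18. All 4 controls gave 0 and 8 upon the 2 deletions, and turned the log2 FC of FN1 upon VEGFC-LNC deletion to -0.085. With each control pair as 1 sample, a control set had 1 value, and counts are not given. The median log2 FC of the matrix genes was then -0.31 and 0.18 upon the 2 deletions, as in the main fit. It was -0.75 between the control sets and 0.52 for the difference. Leaving out both first clones gave 11, 18, 17 and 12, where 20.1%, 20.1%, 28.1% and 10.2% of all tested genes were DEGs. COL1A1, tested through the VEGFA-LNC controls alone, is in the 11 and the 17, as in the main 6 and 10. The replicate block gave 2 upon VEGFA-LNC deletion, COL5A1 and FBN1, and 2, 9 and 3 in the other comparisons. The cause of these shifts was not tested, beyond the fewer samples entering a fit.

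With 1 clone left out, the counts ranged from 3 to 10 upon VEGFA-LNC deletion and from 3 to 13 upon VEGFC-LNC deletion. They ranged from 9 to 16 between the control sets and from 3 to 9 for the difference. The highest count of each was without VEGFA-LNC clone 1, where 13.0%, 8.69%, 23.0% and 5.21% of all tested genes were DEGs. Upon VEGFA-LNC deletion the count was 3 without clone 2 or clone 3, where 163 and 108 of all tested genes were DEGs. Leaving out 1 of the 4 controls left 1 library in its group, and counts are not given for these fits. A control left alone was assumed to vary like the other groups. Of the values of single genes under the alternatives, 473 kept direction and side of the threshold, 149 lost the call, 19 gained one and 1 reversed.

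Depth limited COL1A1, COL12A1, LAMC3 and NID2, with at most 52 reads in a library, and the 8 genes that were not tested. With 2 controls and 3 clones per deletion, calls near the threshold depended on single libraries, and clone and deletion cannot be told apart beyond the spread of 3 clones.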
